A study of Mus musculus with 2 samples.

Results

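Interferon response genes were followed in sorted bone marrow stromal cells. The 9 genes were Ifit1, Ifit3, Isg15, Irf1, Irf7, Stat2, Gbp2, Gm4951 and Bst2, matched by gene symbol among the 28006 measured features, and all 9 were found in both libraries. Single-cell 3′ RNA sequencing with molecular tags (UMIs, which let each captured transcript be counted once) was carried out on sorted Cxcl12-GFP+ femoral cells, with 1 library for each of 2 mice. Mouse #1 and Mouse #2 formed 1 group: both carried Cxcl12(GFP/+), Cxcl12-iCreER and R26R(tdTomato/+), both received tamoxifen on postnatal day 21, and both were analysed on day 28. The recombinase came from a Cxcl12 bacterial artificial chromosome transgene and GFP occupied an allele of Cxcl12 itself, so no mouse here had an unmodified Cxcl12 locus. The labels of the sort disagree, since a protocol field names tdTomato+ cells and the other fields name GFP+ cells. There was no untreated or interferon-treated group, and every comparison was between classes of cells within these mice.

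Among the 9 genes, Stat2, Irf7 and Irf1 encode transcription factors of the response. Ifit1 and Ifit3 encode cytoplasmic proteins that act on foreign RNA, Isg15 a ubiquitin-like modifier, Bst2 (tetherin) a membrane protein that holds budding virus particles, and Gbp2 a guanylate-binding GTPase. Gm4951 belongs to the interferon-inducible GTPases. By the GENCODE annotation of mm10, all 9 are protein-coding. Ifit3 (34583531 to 34588731) and Ifit1 (34640871 to 34650009) both lie on the plus strand of chromosome 19. Isg15 lies on chromosome 4 (156199424 to 156200818, minus strand), Irf1 on chromosome 11 (53770014 to 53778374, plus strand) and Irf7 on chromosome 7 (141262706 to 141266481, minus strand). Stat2 lies on chromosome 10 (128270559 to 128292849, plus strand), Gbp2 on chromosome 3 (142620602 to 142638008, plus strand), Gm4951 on chromosome 18 (60212080 to 60247820, plus strand) and Bst2 on chromosome 8 (71534255 to 71537456, minus strand). The last 600 bases of the Ifit3 transcript shared 14.6% of their 60-base stretches with other genes, chiefly its near-copy Ifit3b, so the split of UMIs between Ifit3 and Ifit3b is uncertain. For Isg15 that share was 2.77%, and for the other 7 genes it was 0%.

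Interferons are secreted proteins that warn cells of infection. Type I interferons (alpha and beta) bind the IFNAR receptor and act through JAK kinases on a complex that contains STAT2 and IRF9, which binds interferon-stimulated response elements (ISREs) near target genes. Interferon gamma binds the IFNGR receptor, and its response runs largely through gamma-activated sites (GAS elements). Stromal reticular cells of the marrow, which make CXCL12, adiponectin and lipoprotein lipase, form the niche of hematopoietic stem cells, and those stem cells respond to interferons.

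Promoters are shown for 6 genes with a match to ISRE or GAS letters in the window printed. Any link between these letters and the levels below was not tested. Each line covers bases 160 to 50 upstream of the RefSeq transcription start (GRCm38.p6), read 5′ to 3′ on the strand of the gene, and capitals mark a match, on either strand, to the ISRE letters (GAAA, any 2 bases, GAAA) or the GAS letters (TTCNNNGAA).
Ifit1, chr19:34640729-34640839, plus strand: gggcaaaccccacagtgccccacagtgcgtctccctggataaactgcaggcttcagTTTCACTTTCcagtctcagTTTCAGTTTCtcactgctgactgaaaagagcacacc
Ifit3, chr19:34583369-34583479, plus strand: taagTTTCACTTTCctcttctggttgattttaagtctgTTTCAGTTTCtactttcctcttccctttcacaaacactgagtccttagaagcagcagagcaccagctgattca
Isg15, chr4:156200868-156200978, minus strand: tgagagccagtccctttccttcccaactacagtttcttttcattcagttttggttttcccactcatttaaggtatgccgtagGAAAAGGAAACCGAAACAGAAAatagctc
Gbp2, chr3:142620503-142620613, plus strand: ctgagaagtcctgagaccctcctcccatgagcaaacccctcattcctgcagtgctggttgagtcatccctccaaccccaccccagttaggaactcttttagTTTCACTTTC
Bst2, chr8:71537522-71537632, minus strand: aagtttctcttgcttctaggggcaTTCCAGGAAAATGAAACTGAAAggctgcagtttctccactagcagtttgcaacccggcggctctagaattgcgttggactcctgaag
Irf1, chr11:53769854-53769964, plus strand: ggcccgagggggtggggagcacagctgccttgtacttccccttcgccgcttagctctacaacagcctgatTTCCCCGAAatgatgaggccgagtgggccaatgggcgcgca

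Over the 250 bases upstream, the ISRE letters were found in 6 of the 8 genes with a promoter entry. Ifit1, Ifit3 and Bst2 had 2 matches each, the matches of Bst2 overlapping, and Isg15 had 3 overlapping ones. Gbp2 and Stat2 had 1 match each, that of Stat2 at bases 222 to 213 upstream and outside the window shown. The same letters occurred in 2.98% of all 32851 promoter entries. Irf1 and Irf7 held no match to them in this window. The GAS letters were found in Irf1 and in Bst2, where they overlapped the ISRE letters, and in 7.02% of all entries. A match is a stretch of letters and does not show that a factor was bound.

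The libraries held 54940400 and 88790688 UMIs. Requiring 1000 genes or more per barcode and a mitochondrial share of no more than 15% gave 2750 and 4582 cells, with medians of 12967 and 12190 UMIs, and 7 of these barcodes occurred in both libraries. The 9 genes and an 83-gene list of the interferon pathway were kept out of the clustering. The class studied most closely, rich in Adipoq and Lpl, was called reticular-like and held 1257 cells of Mouse #1 and 2433 of Mouse #2. Its sums gave Adipoq at 1841 and 1757 CPM (UMIs scaled to a total of 1e+06) and Lpl at 4678 and 3386, against at most 357 and 1742 in any other named class. In the same cells the 8 endothelial markers summed to 16.3 and 21.1 CPM, the 6 macrophage markers to 2.07 and 2.04, and the 8 myeloid markers to 239 and 215, where myeloid-like cells had 254523 and 293290. The 8 erythroid markers, hemoglobins among them, summed to 462 and 2428, and their part in the results was not tested.

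All 9 interferon response genes were detected in reticular-like cells of both mice, and 6 of them had their highest mean there among the 8 named classes. In 5 of these 6 (Ifit1, Isg15, Irf1, Stat2 and Gm4951), both mice lay above every value of the 7 other classes, which 6.53% of 13269 genes did. The 9 genes were chosen with earlier results of these data known, so this share is a description. For Stat2 and Ifit1 the margin was within counting error. Stat2 was at 28.8 CPM (95% Poisson interval 26.9 to 30.8) in reticular-like cells of Mouse #2. In preosteoblast-like cells of Mouse #1 it was at 28.5 (24.8 to 32.5). Within Mouse #2, Ifit1 was at 33.6 (31.6 to 35.7) in reticular-like and 29.8 (22.6 to 38.5) in endothelial-like cells. Gbp2 was highest in periosteal-like cells, and Ifit3 and Irf7 were highest in endothelial-like cells. Levels below are CPM of the summed UMIs, with 95% Poisson intervals where given, and they cover counting error only.

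The transcription factors came first. Irf1, the early factor downstream of interferon gamma and of NF-κB, stood at 394 CPM in Mouse #1 and 444 in Mouse #2 in reticular-like cells. Periosteal-like cells followed at 267 and 254, clear of the reticular-like values. Endothelial-like cells had 131 and 105, preosteoblast-like cells 103 and 115, and these neighbors overlapped. Lymphoid-like (69.6 and 64.8), macrophage-like (52.7 and 74.5) and myeloid-like cells (37.5 and 39.1) were lower, and erythroid-like cells had 3.81 and 24.9. Stat2, the signal transducer specific to type I and type III interferons, ran from 37.8 and 28.8 in reticular-like cells down to 9.09 and 8.21 in erythroid-like cells. Between these, endothelial-like (28.3 and 21.1), preosteoblast-like (28.5 and 18.9), periosteal-like (23.6 and 20.6) and lymphoid-like cells (25.4 and 15) overlapped. The macrophage-like (14.4 and 13.9) and myeloid-like (7.34 and 10.7) levels were below all of those. Irf7, which amplifies type I interferon output, was shared between 3 classes that overlapped: endothelial-like (56.7 and 45.7), reticular-like (50.1 and 47.1) and macrophage-like (44.0 and 49.3). Its other classes lay between 8.64 and 35.3.

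The antiviral effectors gave a different picture. Ifit1 stood at 38.4 and 33.6 CPM in reticular-like cells. Endothelial-like cells had 23.8 and 29.8, periosteal-like cells 21.4 and 12.7, and preosteoblast-like cells 26.3 in Mouse #1 but 10.2 in Mouse #2, a range that overlapped both. In the 4 hematopoietic classes Ifit1 was between 0.936 and 12.9. Ifit3 was highest in endothelial-like cells at 32.4 and 21.6, above the reticular-like values of 19.9 and 19.7. The interval of the endothelial-like value of Mouse #2 (15.6 to 29.2, from 42 UMIs) held both reticular-like values. The reticular-like values in turn overlapped the periosteal-like 22.2 and 16.1. Preosteoblast-like cells had 12.9 and 3.83, and the hematopoietic classes between 1.47 and 11.2. Isg15 reached 254 and 214 in reticular-like cells, 153 and 181 in endothelial-like cells and 154 and 98.9 in periosteal-like cells. Erythroid-like cells, which had the lowest mean for Irf1, Stat2, Ifit3, Bst2, Gbp2 and Gm4951, had 121 and 118 CPM of Isg15. Preosteoblast-like cells differed again between the mice, with 143 and 61.6, and macrophage-like (29.96 and 83.6), myeloid-like (32.2 and 39.1) and lymphoid-like cells (28.3 and 17.9) were lower. Bst2 was at 663 and 522 in reticular-like cells and overlapped with 386 and 536 in endothelial-like cells. All other classes had at most 384.

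Of the GTPases, Gm4951 set reticular-like cells apart from the other mesenchymal classes, whereas Gbp2 overlapped with periosteal-like cells. Gm4951 was at 243 and 202 CPM in reticular-like cells, and the next class, periosteal-like, had 57.9 and 41.7. Preosteoblast-like cells had 55.6 and 30.5, endothelial-like cells 23.8 and 21.1, and the hematopoietic classes between 6.15 and 25.4. Gbp2 was at 142 and 161 in periosteal-like cells and at 92.3 (interval 87.7 to 97.1) and 169 (164 to 174) in reticular-like cells, so the mice differed beyond counting error within that class. Endothelial-like cells followed at 72.3 and 77.6 and preosteoblast-like cells at 52.1 and 49.3, with the hematopoietic classes between 6.45 and 38.0. In barcodes with 1 to 100 UMIs, which hold free RNA, Irf1 was at 244 and 247, Gm4951 at 82.9 and 80.0 and Stat2 at 28.9 and 28.3 CPM. For Gm4951 these values lay below the reticular-like level and above that of every other named class. For Irf1 they lay below the reticular-like and periosteal-like levels (periosteal-like 267 and 254) and above those of all other named classes. For Stat2 they were close to the reticular-like values. Irf7 had 45.6 and 32.7 CPM in these barcodes, against 50.1 and 47.1 in reticular-like cells. How much free RNA contributed was not tested.

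**Figure D1:**
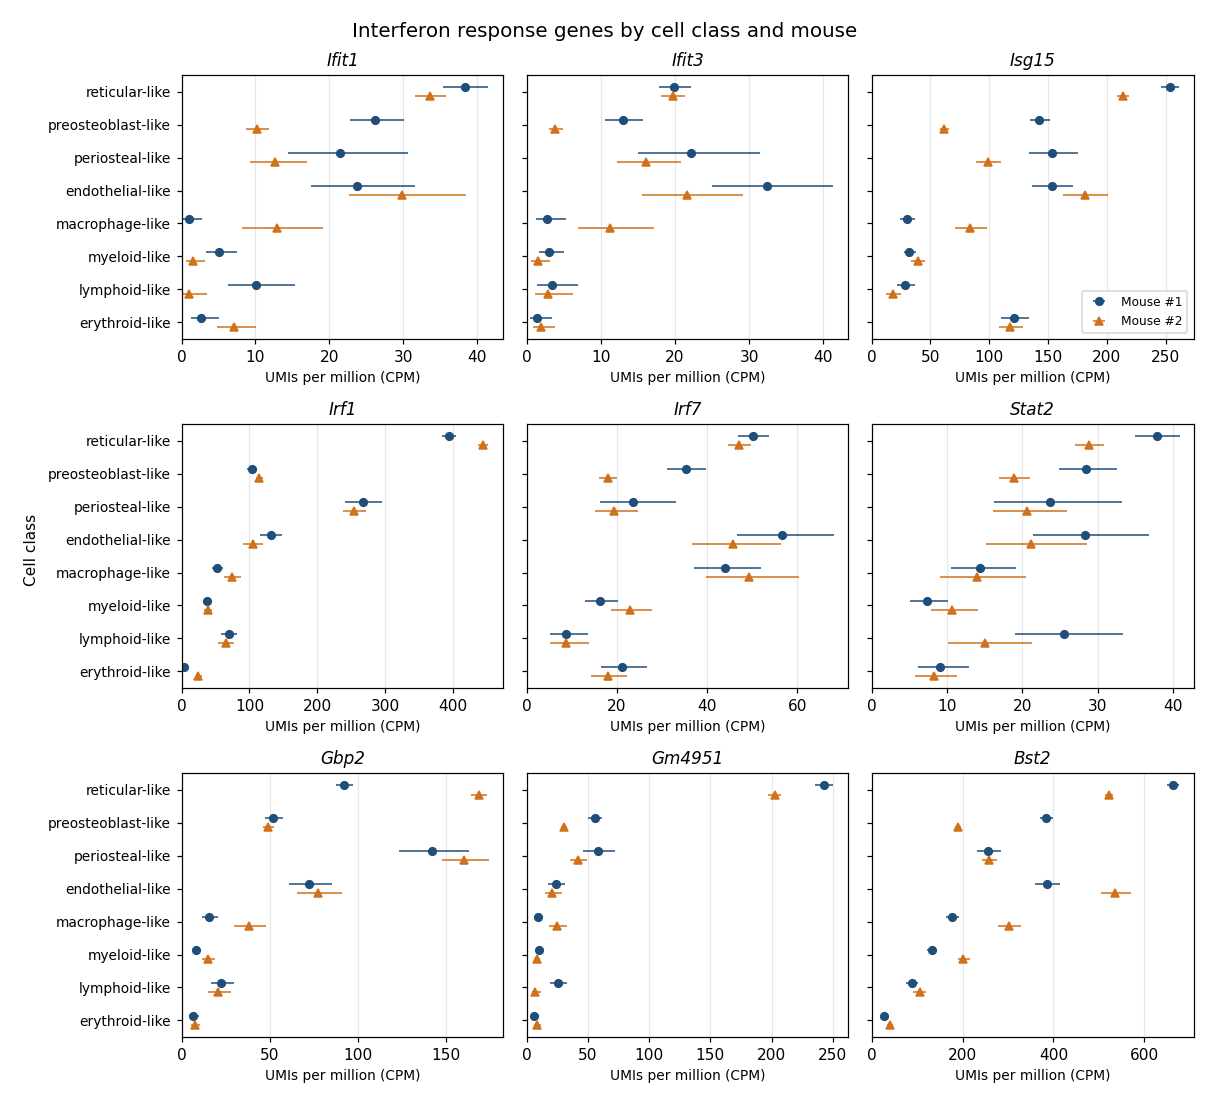
Level of each interferon response gene (x axis, CPM) in the 8 named cell classes (y axis), with 1 point per mouse (circles Mouse #1, triangles Mouse #2) and 95% Poisson intervals as bars. Irf1 and Gm4951 in reticular-like cells stand clear of every other class in both mice, whereas Irf7 overlaps with endothelial-like and macrophage-like cells.

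Detection in single cells followed depth, so each cell was also thinned to 2000 UMIs, which left out 3 and 4 reticular-like cells. After thinning, Bst2 was seen in 66.7% (Wilson 95% interval 64.0 to 69.2) and 56.7% (54.7 to 58.6) of reticular-like cells, against 8.97% and 8.09% of lymphoid-like cells. Irf1 was seen in 44.4% and 47.8%, against 16.2% and 13.6%, and Gm4951 in 35.3% and 32.1%, against 2.56% and 1.28%. Periosteal-like cells were nearer, with Irf1 in 33.3% and 35.4% and Gm4951 in 14.1% and 7.17% of them. Ifit1 was found in only 6.22% and 5.68% and Ifit3 in 4.86% and 2.92% of reticular-like cells, with at most 0.855% of lymphoid-like cells for either. For Bst2, Ifit1 and Ifit3, endothelial-like cells were not apart in this way. Bst2 was seen in 51.3% and 55.1% of them, Ifit1 in 3.95% and 5.07% and Ifit3 in 7.24% and 2.90%. Irf1 and Gm4951 were seen in a smaller share of endothelial-like than of reticular-like cells in both mice. For Gm4951 the endothelial-like shares were 5.26% and 2.90%. Without thinning the reticular-like shares were 95.2% and 93.0% for Bst2 and 21.7% and 17.1% for Ifit1, at median depths of 12350 and 11572 UMIs (lymphoid-like cells 5044 and 4376). UMIs of Ifit1 and Ifit3 were concentrated in few cells. The top 1% of reticular-like cells (12 and 24 cells) held 23.8% and 27.4% of Ifit1 UMIs and 22.3% and 33.5% of Ifit3 UMIs. For Irf1 the same share was 6.47% and 6.46%, for Gm4951 6.55% and 6.67%, and for Bst2 4.80% and 6.16%. A single reticular-like cell of Mouse #2 held 139 UMIs of Isg15, where the mean was 2.67.

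Reticular-like cells were compared with preosteoblast-like cells (427 and 854 cells), the other abundant Cxcl12-GFP+ mesenchymal class, which carries Alpl, Ibsp and Col1a1. Counts were summed per mouse and class and tested with edgeR on 2 sums against 2, across 13103 genes. All 9 genes had positive log2 fold changes, and 4 passed at an adjusted p under 0.05, all higher in reticular-like cells, where 29.2% of all genes tested passed, 14.8% as higher and 14.4% as lower. The median log2 fold change was 1.23 for the 9 genes and -0.002 for all genes. Gm4951 was higher by 2.41 ± 0.26 (log2, SE; adjusted p = 0.00286) and Irf1 by 1.95 ± 0.14 (adjusted p = 0.000901). Gbp2 was higher by 1.38 ± 0.28 (adjusted p = 0.0186) and Isg15 by 1.23 ± 0.35 (adjusted p = 0.0486). The call of Isg15 was lost in 3 of 10 alternative settings, with adjusted p up to 0.0926. Within Mouse #1 alone the log2 ratios of Gbp2 and Isg15 were 0.86 and 0.87, and within Mouse #2 they were 1.76 and 1.78. For Irf1 the mice gave 1.97 and 1.94. The remaining genes did not pass: Bst2 at 1.07 ± 0.31 (adjusted p = 0.0503), Irf7 at 0.92 ± 0.27 (0.0537), Ifit3 at 1.38 ± 0.47 (0.0764), Ifit1 at 1.07 ± 0.38 (0.0843) and Stat2 at 0.53 ± 0.21 (0.115).

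Since each mouse gave both sums, a fit with the mouse as a block was also made. All 9 genes passed in it, as higher, with adjusted p between 2.44e-06 for Gm4951 and 0.00717 for Stat2, where 36.1% of all genes passed, 18.3% as higher. In preosteoblast-like cells Mouse #2 had the lower level of 8 of the 9 genes, such as 3.83 CPM of Ifit3 against 12.9 in Mouse #1. The 8 reticular markers moved the same way in these cells, from a sum of 4987 CPM in Mouse #1 to 3342 in Mouse #2, with Lpl at 889 and 472 and Cxcl12 at 3076 and 1779, and their part in the result was not tested. Cells of the Bglap-led cluster within this class (12 and 61 cells) had at most 2.04 CPM of Ifit1, Ifit3 and Isg15. Without that cluster 5 of the 9 genes passed, all as higher, where 3774 of 12968 genes passed, 1951 as higher.

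Against endothelial-like cells (152 and 138 cells), the genes divided. Of 12567 genes tested, 49.7% passed, 24.5% as higher and 25.2% as lower, and 4 of the 9 genes passed, all as higher, a share below that of all genes passing in either direction. Gm4951 was higher in reticular-like cells by 3.37 ± 0.15 (adjusted p = 1.66e-05) and Irf1 by 1.89 ± 0.15 (adjusted p = 0.000151). Smaller differences passed for Isg15, 0.54 ± 0.14 (adjusted p = 0.0203; 0.78 within Mouse #1 and 0.30 within Mouse #2), and Ifit1, 0.48 ± 0.16 (adjusted p = 0.0472; 0.75 and 0.23). The call of Ifit1 held in 2 of 9 alternative settings, with adjusted p from 0.0123 to 0.481. Gbp2 at 0.87 ± 0.30 (adjusted p = 0.0543), Stat2 at 0.48 ± 0.21 (0.103) and Bst2 at 0.42 ± 0.20 (0.123) did not pass, and passed with the mouse as a block (0.00117, 0.0302 and 0.0481), where 51.5% of all genes passed, 25.5% as higher. Within Mouse #1 and Mouse #2 the log2 ratios were 0.83 and 0.022 for Bst2, 0.41 and 1.18 for Gbp2, and -0.65 and -0.073 for Ifit3, so the Bst2 difference came from Mouse #1. Ifit3 was at -0.39 ± 0.19 (adjusted p = 0.142) and Irf7 at -0.018 ± 0.13 (0.921), and neither passed with the block. The 2 endothelial-like clusters differed for some of the genes. Ifit1 was at 30.3 and 37.6 CPM in the cluster led by Gja4 and Sema3g. In the cluster led by Stab2, a sinusoidal marker (28 and 28 cells), it was at 2.17 and 2.33, from 1 UMI per mouse. For Isg15 these values were 179 and 215 against 69.4 and 60.6, and Ifit3 and Irf7 were also apart. Bst2 overlapped (391 and 567 against 371 and 427), as did Irf1 (129 and 120 against 137 and 51.3), Gbp2, Stat2 and Gm4951.

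Compared with myeloid-like cells (261 and 251 cells), all 9 genes passed as higher in reticular-like cells, in a comparison where 69.6% of 12916 genes passed, 36.2% as higher and 33.4% as lower. The changes ran from 0.60 ± 0.18 for Irf7 (adjusted p = 0.0228) to 3.89 ± 0.16 for Gm4951 (adjusted p = 1.66e-06). Irf1 was higher by 2.74 ± 0.14, Gbp2 by 2.82 ± 0.39, Ifit1 by 2.71 ± 0.34, Ifit3 by 2.39 ± 0.26 and Isg15 by 2.00 ± 0.16. Stat2 and Bst2 were higher by 1.17 ± 0.24 and 1.10 ± 0.23, with 1.68 and 1.63 within Mouse #1 and 0.69 and 0.64 within Mouse #2. For Bst2 the myeloid-like level was uneven: 27.6% and 33.1% of the cells had a UMI, and the 2 myeloid-like clusters had 57.8 and 68.5 CPM (led by Retnlg) and 174 and 310 CPM (led by Elane, with the plasmacytoid dendritic marker Siglech). At resolution 1.0, where a plasmacytoid dendritic-like cluster of 6 and 11 cells split off, the Bst2 difference was 2.48. Irf7 likewise had 0.93 in Mouse #1 and 0.30 in Mouse #2, and Ifit1 had 2.23 and 3.72. A few genes made up much of the myeloid-like RNA (the 8 myeloid markers took 254523 and 293290 CPM), so the scaling mattered here. Scaled to total UMIs without TMM, the median of all genes was 0.81 in place of 0.10 and the median of the 9 genes 3.09 in place of 2.39, with all 9 still passing. That scaling gave 7521 genes higher and 2586 lower, against 4679 and 4316.

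**Figure D2:**
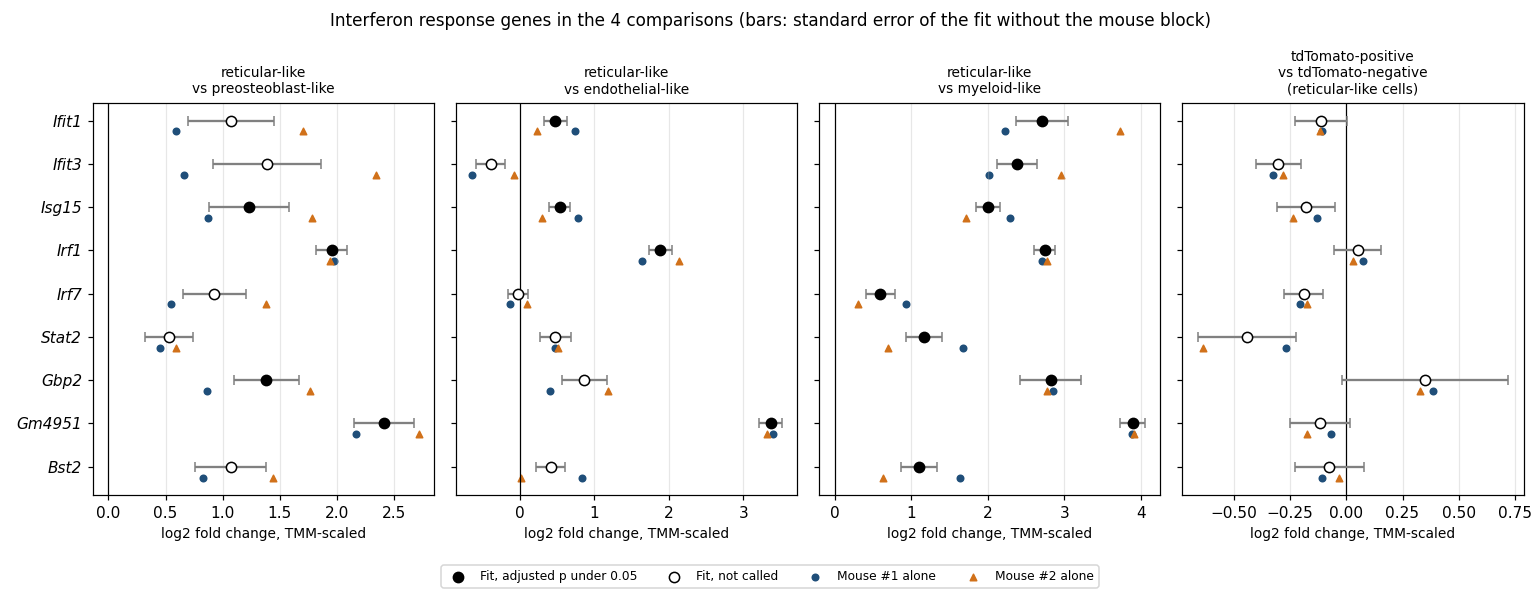
Log2 fold change (x axis, TMM-scaled) of the 9 genes (y axis) in the 4 comparisons. Large circles are the edgeR fit with its standard error as a bar (filled where the adjusted p was under 0.05), and small markers are the ratio within each mouse. Gm4951 and Irf1 are filled in the 3 comparisons between classes, and no gene is filled between tdTomato-positive and tdTomato-negative cells.

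Within the reticular-like class, 4 clusters were compared by their levels in each mouse, as a description. Their leading genes were Ccl2 and Ccl7 (297 and 1017 cells), Rgs16 and Rrad (487 and 400 cells), Bmp4 and Rspo2 (317 and 459 cells), and the stress genes Hspb1 and Hspa1b (156 and 557 cells). The mice filled them unequally, since the Ccl2-led one took 23.6% of this class in Mouse #1 and 41.8% in Mouse #2. In the Bmp4-led cluster, 3 members (Ifit1, Ifit3 and Gm4951) lay above every value of the other 3 clusters in both mice, which 24.8% of 12026 genes did, a large background. Ifit1 was there at 77.7 and 57.3 CPM against 19.8 to 40.7 elsewhere, Ifit3 at 30.7 and 33.1 against 11.6 to 28.4, and Gm4951 at 382 and 315 against 140 to 281. Stat2 was at 58.9 and 40.4 there, and the latter value fell short of the 41.6 in the Hspb1-led cluster of Mouse #1.

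Irf1 ran the other way. It was lowest in the Bmp4-led cluster at 200 and 228 CPM, as were 4.44% of genes, and highest in the Hspb1-led cluster at 656 and 679, as were 2.44%. The Rgs16-led cluster had 490 and 505, and the Ccl2-led cluster 269 and 387. Jun, an immediate early gene, and Hspa1a were also among the leading genes of the Hspb1-led cluster, and the bones had been dissociated with enzymes at a warm temperature. The part of cell stress in the Irf1 level was not tested. Gbp2 had its highest level of each mouse in the Ccl2-led cluster, 144 and 241, against 90.4 and 177, 49.8 and 93.6, and 56.3 and 76.8. Mouse #2 had more Gbp2 than Mouse #1 in each of the 4 clusters. In the Ccl2-led cluster Ifit1 (23.2 and 19.8), Ifit3 (11.6 and 13) and Stat2 (26.2 and 22.3) lay below every value of the other clusters, which 9.50% of genes did. Isg15, Irf7 and Bst2 varied less, with ranges over the 8 values of 189 to 306, 42.8 to 62.2 and 492 to 717.

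**Figure D3:**
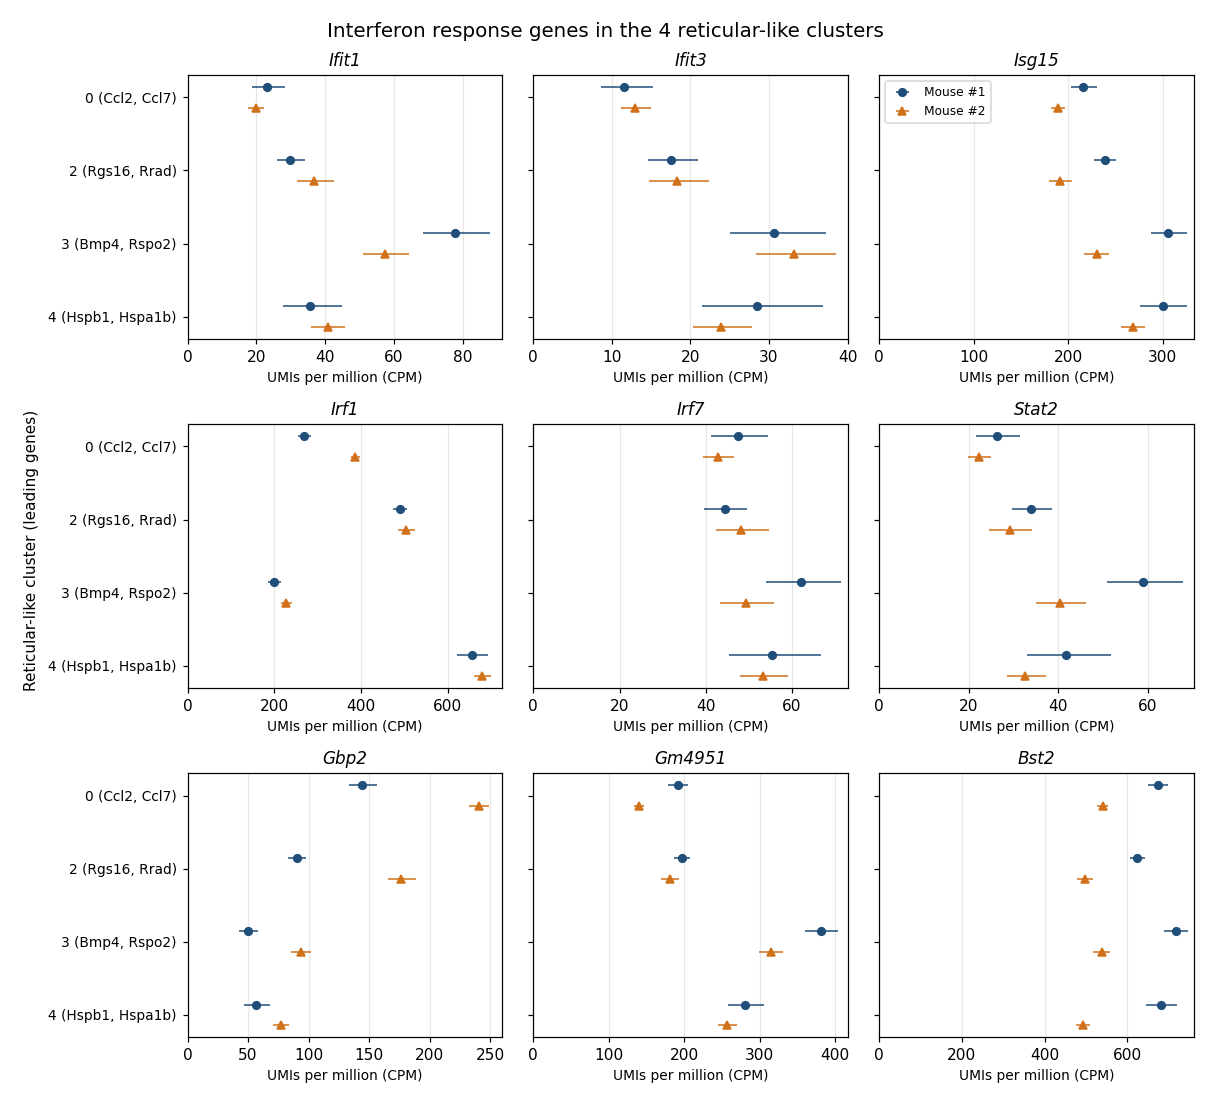
Level of each gene (x axis, CPM) in the 4 reticular-like clusters (y axis, number and leading genes), with 1 point per mouse and 95% Poisson intervals as bars. Ifit1 and Gm4951 are highest in the Bmp4-led cluster, where Irf1 is lowest, and Gbp2 is higher in Mouse #2 than in Mouse #1 in every cluster.

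Across single reticular-like cells several of the genes were correlated, while Irf1 was near 0 with all others. Pearson correlations of ln(1 + UMIs per 10000) were computed within each mouse, over 1257 and 2433 cells. These cells share a library and differ in depth, so the values are descriptions without a test. Ifit1 and Ifit3 had 0.43 and 0.46, Ifit1 and Isg15 0.34 and 0.41, and Ifit3 and Isg15 0.30 and 0.37. Irf7 was tied most closely to Isg15 (0.25 and 0.30), Ifit3 (0.25 and 0.24) and Ifit1 (0.23 and 0.23). Values of similar size joined other members to these: Isg15 and Bst2 had 0.26 and 0.27, Ifit1 and Gm4951 0.23 and 0.18, and Ifit1 and Stat2 0.18 and 0.21. With Irf1, the other 8 genes had values between -0.08 and 0.04. Gbp2 was at most 0.18 with any other member.

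Out of 11896 genes detected in at least 1% of these cells in each mouse, the genes most like Ifit3 were Ifit1, Ifit3b (0.33 and 0.41), Isg15, Rsad2 (0.27 and 0.28) and Rtp4 (0.27 and 0.30). Ifit3b shares sequence with Ifit3, and the part of this in their correlation was not tested. Rtp4 (0.35 and 0.38) and Xaf1 (0.31 and 0.33) were close to Isg15. Irf1 was nearest to Nfkbia (0.49 and 0.43), Zfp36 (0.49 and 0.41) and Nr4a1 (0.44 and 0.40), an inhibitor of NF-κB, an mRNA-destabilizing protein and an immediate early nuclear receptor. Gm4951 was nearest to F830016B08Rik (0.35 and 0.35), Iigp1 (0.24 and 0.26) and Ebf1 (0.22 and 0.22), and Bst2 to Ifitm3 (0.56 and 0.46), H2-D1 (0.43 and 0.36) and Tmem176b (0.44 and 0.36). For Gbp2 the nearest genes were Vim (0.22 and 0.29), Tagln2 (0.22 and 0.24), Txn1 (0.22 and 0.23), Lmna (0.20 and 0.29) and Anxa1 (0.19 and 0.24). Stat2 had only weak values, with Ifit1 (0.18 and 0.21), Oasl2 (0.16 and 0.18) and Gbp7 (0.16 and 0.18).

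**Figure D4:**
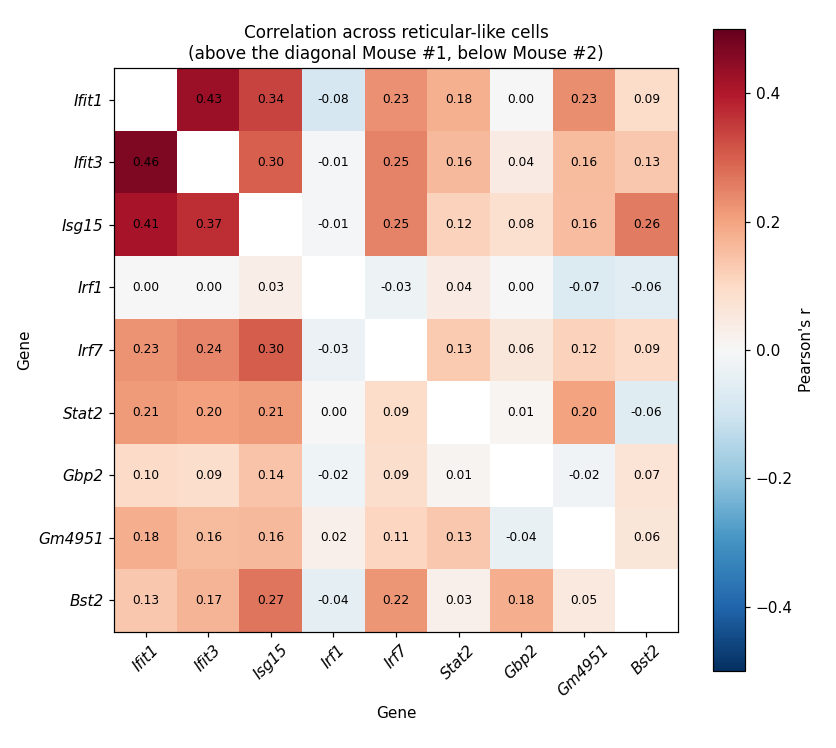
Pearson's r between each pair of the 9 genes (both axes) across reticular-like cells, above the diagonal in Mouse #1 and below it in Mouse #2, with the color scale from -0.5 to 0.5. Ifit1, Ifit3, Isg15 and Irf7 form the darkest block, and the row and column of Irf1 are near 0.

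The chemokine Cxcl9, a classical target of interferon gamma, was used to divide the reticular-like cells. Reticular-like cells with at least 3 Cxcl9 UMIs numbered 121 and 342, and 81 and 131 further cells had 2. The minimum was chosen after the data were seen, and these cells were deeper (medians of 15926 and 13494 UMIs against 12022 and 11216), so the values are descriptions. Isg15 was at 416 and 377 CPM in them against 231 and 182 in the other reticular-like cells, and Ifit1 at 74.9 and 52.5 against 33.2 and 29.9. Gbp2 had 126 and 307 against 87.6 and 142, Irf7 76.4 and 85.0 against 46.4 and 39.6, and Bst2 933 and 777 against 625 and 471. Irf1 had 319 and 428 in them against 404 and 447, and Stat2 had no common direction, 30.6 and 33.0 against 38.8 and 28.0.

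TdTomato marked cells in which the Cxcl12-iCreER transgene had recombined the reporter. Reticular-like cells over the 99th percentile of tdTomato in hematopoietic cells of the same mouse were called positive, 500 of 1257 in Mouse #1 and 976 of 2433 in Mouse #2, at median depths of 12361 and 11697 UMIs (negative cells 12337 and 11518). None of the 9 genes passed between positive and negative cells, and neither did any of 12190 genes (0%). At an unadjusted p under 0.05 were 472 genes and 1 member, Ifit3. That fit leaves out that each mouse gave both sums, whose deviations correlated at 0.50, so it cannot show that levels were equal. DESeq2 called 2 genes and no member. The log2 fold changes were small, from -0.44 ± 0.22 for Stat2 to 0.35 ± 0.37 for Gbp2, and each gene had the same sign in both mice. With the mouse as a block, 4.35% of genes passed (2.14% as higher and 2.21% as lower), among them Gbp2, higher in positive cells by 0.35 ± 0.06 (adjusted p = 0.000176), and Stat2, lower by 0.47 on the log2 scale (SE 0.09, adjusted p = 0.0011). Gbp2 was at 107 CPM (TMM-scaled) in positive and 82.0 in negative cells of Mouse #1, and at 193 and 154 in Mouse #2. Stat2 was at 33.5 and 40.4 in Mouse #1 and at 21.6 and 33.6 in Mouse #2.

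The rest of the pathway was read from 84 listed genes, of which 83 were measured. Interferons themselves were hardly seen. Of 9 ligand genes, 6 had no UMI in any cell, and the other 3 had 22 UMIs in total: 14 of Ifng, 7 of Ifnk and 1 of Ifna2. Type I interferon receptor transcripts were set beside free RNA, which had 146 and 143 CPM of Ifnar2 and 43.9 and 46.4 of Ifnar1. Ifnar2 was at 344 and 322 CPM in reticular-like cells and, in order, at 192 and 159 in periosteal-like, 171 and 157 in macrophage-like, 124 and 117 in endothelial-like, 122 and 104 in preosteoblast-like, 82.4 and 82.8 in myeloid-like, 64.3 and 64.3 in lymphoid-like and 47.2 and 53.7 in erythroid-like cells. The first 3 classes lay above the free-RNA level and the other 5 below it. Ifnar1 had 59.9 and 60.8 in reticular-like cells, 22.2 and 23.4 in myeloid-like cells, 9.96 and 15.98 in erythroid-like cells and between 43.8 and 62.3 in the other 5 classes.

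Against preosteoblast-like cells 65 of these genes were tested, and 36 passed as higher in reticular-like cells and 1 as lower. The median log2 fold change of the 65 was 0.83. Of all genes, 14.8% passed as higher and 14.4% as lower. The list was chosen with earlier results of these data known. These shares, and those against the other classes below, are therefore descriptions. By role, 12 of 22 targets of the alpha or beta type, 8 of 13 of the gamma type, 3 of 5 receptors, 4 of 6 kinases and STATs, 4 of 6 inhibitors and 3 of 9 sensors were higher. The largest changes were those of Cxcl10 (3.15 ± 0.35), Cxcl9 (2.77 ± 0.46), Irf8 (2.50 ± 0.18) and the GTPase gene Iigp1 (2.41 ± 0.17), and the 1 lower gene was Nlrc5 (-1.08 ± 0.21), a regulator of MHC class I genes. With the mouse as a block, 48 were higher and 2 lower, against 18.3% of all genes as higher.

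Against endothelial-like cells 18 of 65 genes of the list were higher and 19 lower, with a median of 0.13. These shares were near those of all genes, 24.5% higher and 25.2% lower. Receptors leaned to reticular-like cells (4 of 5 higher), whereas 8 of 21 alpha or beta type targets were lower and 4 higher. Cxcl9 (3.02 ± 0.65), the sensor Zbp1 (2.33 ± 0.33), Nlrc5 (2.28 ± 0.40) and Lgals3bp (2.02 ± 0.15) were highest on the reticular-like side. On the endothelial-like side stood 2 guanylate-binding protein genes, Gbp9 with 50.1 and 42.1 CPM against 0.244 and 0.330, and Gbp4 with 60.7 and 58.6 against 0.792 and 0.923. Trim30a (-3.72 ± 0.26) and Rsad2 (-3.68 ± 0.22), the gene of viperin, were also lower in reticular-like cells. Gbp2, by contrast, had a positive value in this comparison.

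Against myeloid-like cells 37 of 69 were higher and 18 lower (49 and 15 with total UMI scaling), where 36.2% of all genes passed as higher and 33.4% as lower. Gamma type targets were mostly higher, 11 of 13, and 4 of 5 other interferon regulatory factors were lower. Iigp1 (3.86 ± 0.14), Phf11d (3.53 ± 0.27), the RNA sensor Tlr3 (3.51 ± 0.38) and Lgals3bp (3.09 ± 0.13) led the higher genes. At the other end were Slfn2, with 1.40 and 1.29 CPM against 293 and 295, and 3 genes with at most 1 UMI per mouse in reticular-like cells: Oas3 (87 and 87 UMIs in myeloid-like cells), the type III receptor gene Ifnlr1 (56 and 50) and Tlr7 (10 and 32). Between tdTomato-positive and tdTomato-negative cells none of 63 genes passed (6 at an unadjusted p under 0.05), and with the block 2 were higher and 4 lower.

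**Figure D5:**
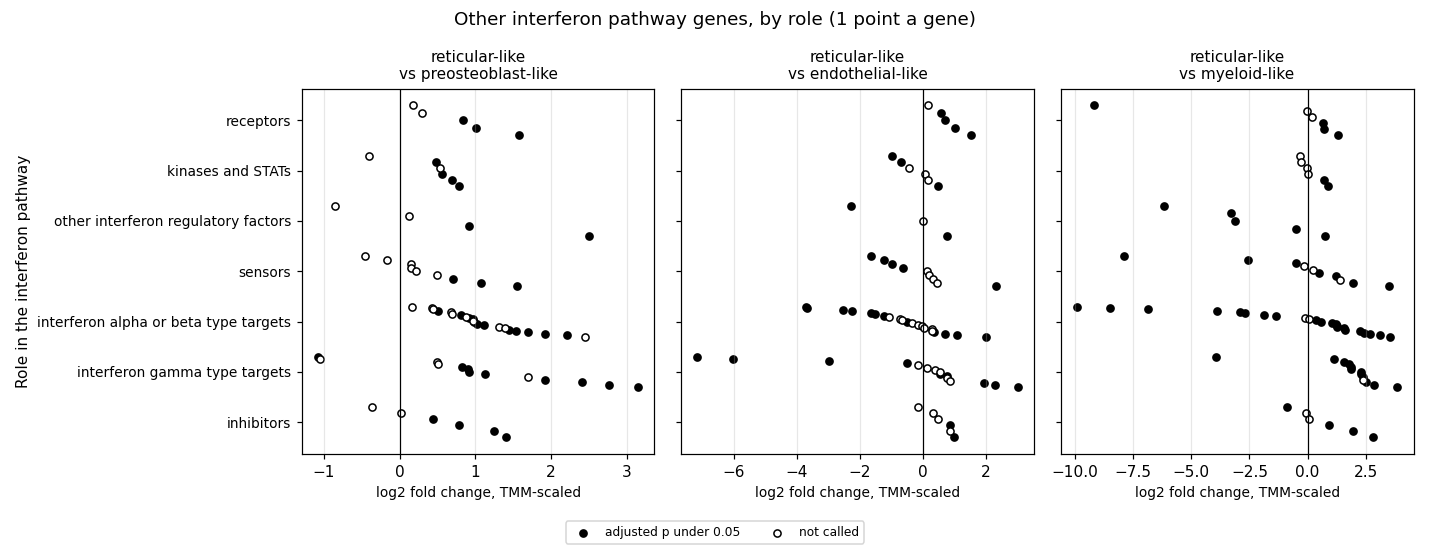
Log2 fold change (x axis, TMM-scaled) of the tested genes of the interferon pathway list, 1 point per gene, by role (y axis), in reticular-like cells against 3 other classes. Filled points had an adjusted p under 0.05. Most points lie above 0 against preosteoblast-like cells, and both directions are filled against endothelial-like cells.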

How the data were processed

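The values deposited by the authors are raw UMI counts per gene and barcode, unfiltered for cells, made with Cell Ranger 3.0.0 per the file headers on mm10 with reporter sequences per the study's methods. The annotation release is not given in the sources used here. Everything else was computed from these counts. Cells needed 1000 genes and a mitochondrial share up to 15%. The 2000 most variable genes, without the 9 genes, the pathway list, mitochondrial genes and reporters, gave 30 principal components and Leiden clusters at resolution 0.5 (scanpy 1.11.5, leidenalg 0.10.2). A cluster was named "-like" for the list with the largest share of markers raised 1.5-fold, with 3 or more raised. These names may differ from those of the study. Scrublet called 6 and 3 doublets and so had not worked. Doublets were kept, and removing the 60 and 168 highest scores was an alternative.

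Counts were summed per mouse and class and tested with edgeR 4.0.16 (R 4.3.3; quasi-likelihood, TMM, filterByExpr, Benjamini-Hochberg over all genes), with DESeq2 1.42.0 as an alternative. P-values of the fits without the block rest on the spread between 2 mice. With the mouse as a block they rest on how the difference between the sums varied between the 2 mice. Levels are CPM per total UMIs, and log2 fold changes are TMM-scaled. The block pairs sums of the same animal, whose deviations correlated at 0.29, 0.13, 0.17 and 0.50 in the 4 comparisons. Data were also simulated for the preosteoblast-like comparison (13105 genes). Of genes changed 2-fold 79 of 100 were recovered, and of those changed 4-fold 100 of 100, with 4 false calls. The simulated counts had a fixed dispersion and no difference between mice, and only well-counted genes were changed. These rates may therefore not hold for the real sums. Named genes were the 9 members, the 4 highest and 4 lowest called pathway genes per comparison and the nearest genes by correlation. Ligands, Ifnar1, Ifnar2 and the Cxcl9 split were chosen after values were seen. The members and lists were chosen with earlier results of these data known. Intervals cover counting error only.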

Additional observations from a re-analysis of the deposited data

How the results depend on the processing

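Against preosteoblast-like cells 4 of the 9 genes passed, where 29.2% of all genes did. With the mouse as a replicate block 9 passed (36.1% of all genes), with DESeq2 7 (3261 of 19157 genes) and with no filter on low counts 9 (4733 of 19157). A fit over all classes gave 7 (2686 of 13272), but total UMI scaling gave 3 (3605 of 13103) and the strict cell limits 3 (3559 of 12982). Against endothelial-like cells 4 passed (49.7% of all genes), and 7 with the replicate block (51.5%) and 7 with no filter (6913 of 18661). Between tdTomato-positive and tdTomato-negative cells none passed (0% of all genes), and 2 did with the replicate block (4.35%). The cause of the differences without the block was not tested. The sign of Irf7 against endothelial-like cells, -0.018, turned to 0.0092 with DESeq2, 0.055 with no filter and 0.076 over all classes, and ran from -0.12 to 0.10 with either mouse left out. Ifit3 passed as lower in this comparison with doublets removed. All other log2 fold changes of the 9 genes kept their sign under the alternatives run, including resolution 1.0, limits of 2000 genes and 10% mitochondrial UMIs, doublets removed, RLE and total UMI scaling and 5 tdTomato UMIs. In the preosteoblast-like comparison 20 such values gained and 3 lost the threshold (all Isg15), in the endothelial-like one 10 and 8 (Ifit1 in 7 settings, Isg15 in 1), and in the myeloid-like one 1 lost it (Irf7, DESeq2, adjusted p = 0.0587). The total UMI scaling and the fit without the Bglap-led cluster were added after the data were seen. Leaving out a mouse leaves 1 sum against 1, so those values have no test and no count. With 2 mice, differences near the spread between them were not detectable.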

Other observations

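Among 2 clusters that stayed unnamed, the shallow one (49 and 127 cells, medians of 3098 and 2925 UMIs) was led by F830016B08Rik and had 581 and 435 CPM of Gm4951, 510 and 540 of Irf1 and 90.4 and 87.5 of Stat2, all above the reticular-like levels. In the same cells Bst2 was at 129 and 84.9 and Isg15 at 58.1 and 23.2, below the reticular-like levels. Low depth moved with this pattern, and its part was not tested. The other unnamed cluster, led by Acta2 and cell cycle genes (66 and 82 cells), had 23.0 and 32.1 CPM of Gm4951 and 49.1 and 59.2 of Irf1.

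Erythroid-like cells had 121 and 118 CPM of Isg15 and 133 and 123 of Rsad2, the highest Rsad2 level of the 8 classes in both mice, next to 2.64 and 7.10 of Ifit1 and 1.47 and 2.00 of Ifit3. Endothelial-like cells followed for Rsad2 at 75.4 and 87.8, and reticular-like cells had 7.56 and 5.01.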
